A study of Homo sapiens with 4 samples.

Results

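The genes described here are 10 members of the ATF4 stress and serine synthesis program, ATF4, DDIT3, TRIB3, DDIT4, SESN2, ASNS, PHGDH, PSAT1, SLC7A11 and CHAC1. They were taken from a fixed list by gene symbol, after the Ensembl IDs of the deposited table had been matched to gene names, and each symbol matched 1 of the 62443 genes in the table. The 4 RNA-seq libraries came from HGC-27, a line of human gastric cancer cells, 2 from cells given the GLUP peptide at 10 μg/ml (GLUP) and 2 from control cells (Con). GLUP is a cyclic peptide designed to bring TEAD4 molecules together, and the comparison asks which transcripts differ when cells receive it. Both groups share the same line and medium, so no other cell background is represented. The methods give a treatment of 48 h and a shorter time is given elsewhere in the study, and the controls are labelled as untreated whereas the methods describe the storage buffer of the peptide. The replicates are described as biological. Values of a pair of libraries are given with replicate 1 first.

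ATF4 is a basic leucine zipper transcription factor at the centre of the integrated stress response. Kinases that sense amino acid shortage, misfolded protein, heme loss or viral RNA phosphorylate the initiation factor eIF2, which lowers general translation while favouring translation of the ATF4 mRNA. ATF4 then raises genes for amino acid synthesis and uptake, for glutathione supply and, when stress lasts, for growth arrest and cell death. Because ATF4 is controlled largely at translation, its mRNA level alone does not report its activity, and its target genes are usually read together with it.

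Expression is given as FPKM, a fragment count scaled by gene length and library size. The 4 libraries summed to between 909735 and 949919 FPKM, and their sequencing depth is unknown, so the values carry no counting error here. The test was limma on log2(FPKM + 1) values, for genes averaging 1 FPKM or more, and these values understate the change of a low gene. Of the 10 genes, 9 were among the 7588 genes tested, and SESN2 stayed under the filter with a mean of 0.445 FPKM in control cells and 1.26 FPKM with GLUP. Over the genes tested, Pearson r was 0.933 within the control pair and 0.986 within the GLUP pair, and control replicate 2 stood farthest from the GLUP libraries (0.873 and 0.886). Over all genes tested the log2 fold changes had a median of −0.36. Relative to that value the 9 tested members stood at −0.67 (DDIT3), −0.41 (SLC7A11), −0.24 (ASNS), 0.26 (ATF4) and 0.39 (TRIB3). The others stood at 0.57 (PSAT1), 1.39 (PHGDH), 1.51 (CHAC1) and 1.73 (DDIT4). The labels record no batch. Of the markers for an epithelial cancer line, CDH1 and EPCAM stood at or under 0.124 FPKM in every library and VIM at 293 to 387 FPKM, whereas KRT8, KRT18 and KRT19 stood between 0.764 and 2.25 FPKM and were higher in both GLUP libraries than in both controls. The 4 fibroblast markers COL1A1, COL3A1, DCN and LUM were all present, with sums of 124 and 119 FPKM in the Con pair and 119 and 123 FPKM in the GLUP pair. Within them COL1A1 was higher without overlap (2.97 and 3.64 against 6.90 and 4.42 FPKM) and DCN lower (26.5 and 41.3 against 20.1 and 22.3 FPKM). Whether these markers of the line and of fibroblasts bear on the results below was not tested. The blood cell markers CD3E and HBB were listed at 0 throughout, and PTPRC and CD14 reached at most 0.0394 FPKM. Of 3 endothelial markers, 2 had an entry and summed to at most 0.00450 FPKM.

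The members did not move as a block. In bulk RNA, fewer cells that use a gene and less of its RNA per cell cannot be told apart. DDIT3, SLC7A11 and ASNS were lower in both GLUP libraries than in both control libraries, DDIT4, CHAC1, PHGDH and SESN2 were higher in both, and ATF4, TRIB3 and PSAT1 overlapped between the groups. None of the 9 tested members had an adjusted p under 0.05 in limma with Benjamini-Hochberg adjustment, as was the case for all but 0.0264% of the genes tested, and 3 had an unadjusted p under 0.05. Non-overlapping lower values were found in 3 of the 9 against 49.7% of all genes tested, and non-overlapping higher values in 3 of the 9 against 17.5%. On the log2(FPKM + 1) scale a fold change over 2 was seen downward in 1 member (DDIT3) against 16.3% of all genes and upward in 3 (DDIT4, CHAC1 and PHGDH) against 6.83%. Without the pseudocount SLC7A11 was also over 2-fold lower, with a log2 ratio of mean FPKM of −1.31. On that scale PHGDH, at 0.957, was no longer over 2-fold higher. The unadjusted threshold was passed downward by 2 members (DDIT3 and SLC7A11) against 25.4% of all genes and upward by 1 (CHAC1) against 6.37%. An exact permutation test was not run on single genes, because its smallest two-sided p with 4 libraries is 0.333.

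**Figure D1:**
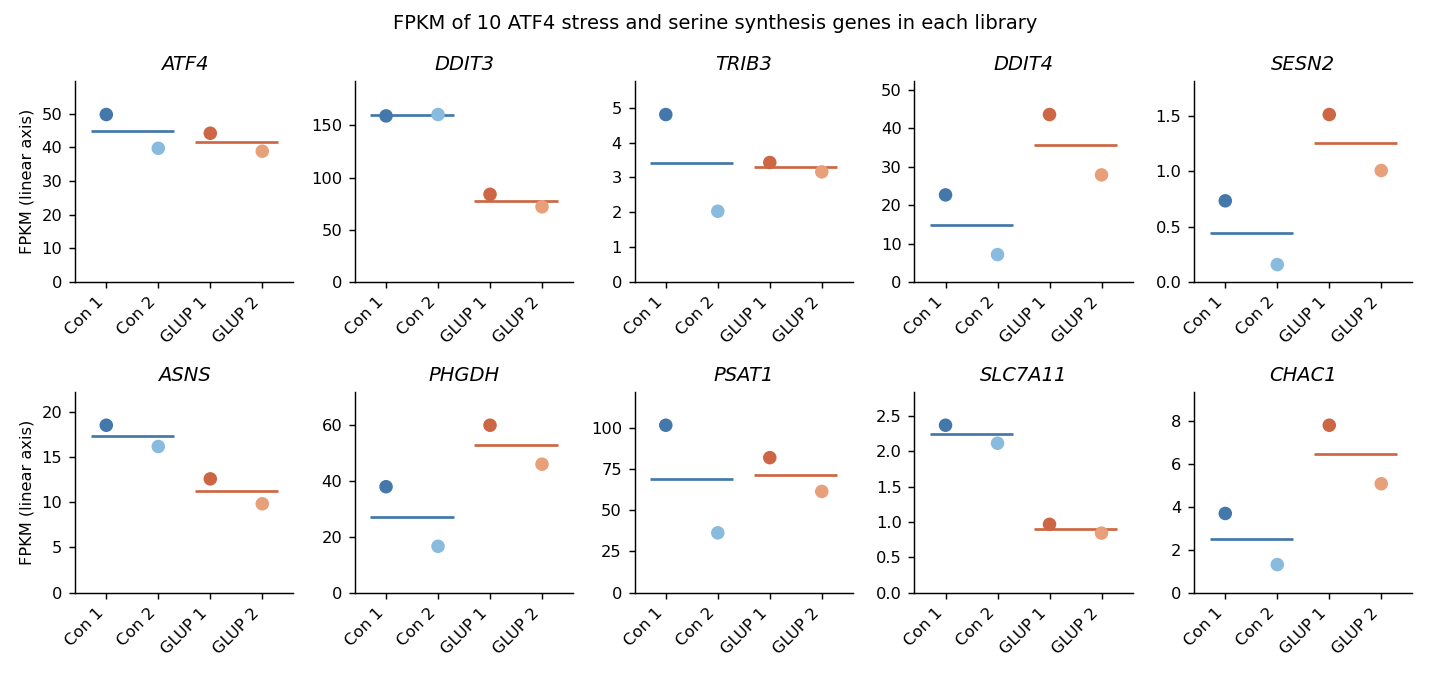
Each panel plots the FPKM of 1 gene on a linear axis from 0, with a point per library and a line at the mean of each group of 2 libraries (Con in blue, GLUP in orange). The control libraries of DDIT3 lie at 159 and 160.3 FPKM and both GLUP libraries at or below 84.0 FPKM, whereas PSAT1 and TRIB3 have their widest gap between the 2 control libraries.

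ATF4 itself, on chromosome 22 from 39915700 to 39918688 of GRCh37, measured 49.8 and 39.7 FPKM in the Con pair and 44.2 and 38.9 FPKM in the GLUP pair. The groups overlapped, with all 4 libraries within a narrow band. Its log2 fold change was −0.0993 (standard error 0.33, 95% interval −0.91 to 0.72, adjusted p = 0.846 from limma). It turned to 0.24 with each library centred on its median, to 0.20 with quantile normalization and to −0.43 with the GC trend removed, so no direction was resolved. Gene positions here come from the annotation lifted to GRCh37 that the row IDs point to, although the processing notes of the submitters name GRCh38.p10.

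DDIT3 encodes CHOP, a stress-induced partner of C/EBP factors that favours cell death during lasting endoplasmic reticulum stress, and it lies on chromosome 12 from 57910371 to 57915520. It was the most abundant of the 10 genes in control cells per unit of length. Its values were 159 and 160.3 FPKM in the Con pair and 84.0 and 72.0 FPKM in the GLUP pair. The control libraries were nearly equal (SD 0.922 FPKM, n = 2), and both GLUP libraries lay far below them. The log2 fold change was −1.03 (standard error 0.32, 95% interval −1.81 to −0.25, adjusted p = 0.112 from limma), or −0.67 relative to the median of all genes. The direction held under every scaling tried, with a log2 fold change of −0.69 after centring on medians, −0.76 with quantile normalization and −0.85 with the GC trend removed. DDIT3 overlaps MARS1 on the opposite strand, and no source used here says if reads were assigned by strand. MARS1 stood at 12.5 and 6.16 FPKM in the Con pair and 11.7 and 12.5 FPKM in the GLUP pair, far under DDIT3 in every library.

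TRIB3, a pseudokinase that ATF4 and CHOP induce and that dampens their activity, lies on chromosome 20 from 343479 to 378203 and was at 4.81 and 2.03 FPKM in the Con pair and 3.43 and 3.16 FPKM in the GLUP pair. Both GLUP values lay between the control values. Its log2 fold change of 0.0334 (standard error 0.38, 95% interval −0.90 to 0.97, adjusted p = 0.958 from limma) became −0.49 with the GC trend removed and −0.44 without control replicate 2, so its direction was not resolved.

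DDIT4 and SESN2 encode inhibitors of mTORC1 signalling, REDD1 and sestrin 2, through which stressed cells lower anabolic growth. DDIT4, on chromosome 10 from 74033678 to 74035794, measured 22.7 and 7.13 FPKM in the Con pair and 43.5 and 27.9 FPKM in the GLUP pair. Both GLUP libraries lay above both controls, but the control libraries differed from each other more, in ratio, than the nearest GLUP and control libraries did. The log2 fold change was 1.37 (standard error 0.58, 95% interval −0.0525 to 2.79, adjusted p = 0.167 from limma), the largest upward value among the 9 tested members. It was 0.60 against control replicate 1 alone and 2.14 against control replicate 2 alone.

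SESN2, on chromosome 1 from 28586029 to 28609002, was the scarcest of the 10 genes in control cells, with 0.733 and 0.157 FPKM there and 1.51 and 1.01 FPKM with GLUP. The groups did not overlap. In the fit of all genes with a value above 0 its log2 fold change was 0.66 and the adjusted p from limma was 0.441. DDIT4, SESN2, PHGDH and CHAC1 shared their order of libraries, with GLUP replicate 1 highest, GLUP replicate 2 next, then control replicate 1 and control replicate 2. That order was not particular to them, since SLC3A2, SLC1A5, SHMT2 and GPX4, described below, had it too. Its share over all genes was not computed.

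ATF4 binds a composite element with C/EBP factors, which was searched as TGATGNAA on both strands of the RefSeq promoters (250 bases before to 50 after each gene start, GRCh38.p14). Promoter entries were matched for 9 of the 10 genes, all but SLC7A11. The element was found in 2 of the 9, ASNS and CHAC1, and in 3.62% of all 35116 promoter entries, or in 2.70% of the 5548 tested genes with an entry. The whole cyclic AMP response element TGACGTCA was found in none of the 9, so no overlap with the first motif arose, and in 1.85% of all entries, or in 4.38% of the tested genes with an entry. Both matching stretches are shown because these genes lay on opposite sides of the control level with GLUP. The capitals mark the match, which lies 68 bases before the gene start in ASNS (chr7:97872413-97872532, minus strand) and 209 bases before it in CHAC1 (chr15:40953221-40953325, plus strand), where it reads on the opposite strand.
ASNS: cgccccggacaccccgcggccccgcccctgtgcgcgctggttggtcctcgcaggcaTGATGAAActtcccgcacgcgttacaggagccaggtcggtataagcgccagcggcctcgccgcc
CHAC1: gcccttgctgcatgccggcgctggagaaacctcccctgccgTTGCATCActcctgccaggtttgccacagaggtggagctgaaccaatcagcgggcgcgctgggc
A match describes letters in the window and does not show binding.

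ASNS, the enzyme that makes asparagine and a widely used readout of ATF4, lies on chromosome 7 from 97480989 to 97501854 of GRCh37. It was at 18.5 and 16.2 FPKM in the Con pair and 12.6 and 9.82 FPKM in the GLUP pair. Every GLUP value lay below every control value. The log2 fold change was −0.59 (standard error 0.32, 95% interval −1.38 to 0.19, adjusted p = 0.239 from limma), −0.24 relative to the median of all genes, and it turned to 0.0205 with the GC trend removed.

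PHGDH and PSAT1 encode the enzymes of the first and the second step of serine synthesis from the glycolytic intermediate 3-phosphoglycerate. PHGDH, on chromosome 1 from 120191034 to 120286841, was at 37.8 and 16.6 FPKM in the Con pair and 59.8 and 45.9 FPKM in the GLUP pair. The groups did not overlap, and the gap between control replicate 1 and GLUP replicate 2 was smaller than that between the control libraries. Its log2 fold change of 1.03 (standard error 0.47, 95% interval −0.13 to 2.19, adjusted p = 0.189 from limma) was nearly the same with the GC trend removed, at 1.02. It was 0.46 against control replicate 1 alone.

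PSAT1, on chromosome 9 from 80912041 to 80945009, was at 101 and 36.3 FPKM in the Con pair and 81.8 and 61.4 FPKM in the GLUP pair. Both GLUP libraries lay between the controls, which spanned the widest range of any member in FPKM. In ratio, the controls of SESN2, DDIT4 and, slightly, CHAC1 lay farther apart. The log2 fold change was 0.22 (standard error 0.54, 95% interval −1.13 to 1.56, adjusted p = 0.796 from limma), and it was −0.51 against control replicate 1 alone and 0.95 against control replicate 2 alone. PSPH, the enzyme of the last step of serine synthesis, was likewise unresolved, at 17.4 and 9.61 FPKM in the Con pair and 13.3 and 9.69 FPKM in the GLUP pair.

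SLC7A11 and CHAC1 act on opposite sides of the glutathione balance. SLC7A11 is the cystine importer of the xCT exchanger, which feeds glutathione synthesis, and CHAC1 is an enzyme that degrades glutathione. SLC7A11, on chromosome 4 from 139085251 to 139163503, was at 2.37 and 2.11 FPKM in the Con pair and 0.966 and 0.842 FPKM in the GLUP pair. Replicates of each group lay close together and the groups were well apart. Its log2 fold change was −0.77 (standard error 0.23, 95% interval −1.34 to −0.19, adjusted p = 0.111 from limma), and −1.31 as the log2 ratio of mean FPKM without a pseudocount. With the GC trend removed it was 0.0847. Its transcript has the lowest GC content of the 10 genes, 35.4%, below that of all but 3.05% of the genes tested. SLC7A11-AS1, which overlaps it on the opposite strand, stood at 1.29 and 0.510 FPKM in the Con pair and 0.351 and 0.249 FPKM in the GLUP pair, so SLC7A11 is uncertain as far as reads of both could be exchanged.

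CHAC1, on chromosome 15 from 41245160 to 41248710, was at 3.69 and 1.31 FPKM in the Con pair and 7.79 and 5.07 FPKM in the GLUP pair. Both GLUP libraries lay above both controls. The log2 fold change was 1.15 (standard error 0.43, 95% interval 0.0888 to 2.21, adjusted p = 0.140 from limma), with 0.64 against control replicate 1 alone and 1.66 against control replicate 2 alone. With the GC trend removed it was 0.64.

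The choice of control library mattered for some members and not for others. Control replicate 2 lay below control replicate 1 in 8 of the 9 tested members against 53.9% of all genes tested, and by more than 2-fold on the log2(FPKM + 1) scale in 4 of them (DDIT4, PSAT1, PHGDH and CHAC1) against 12.0%. In FPKM itself TRIB3 was also more than 2-fold lower there, at 0.423 times control replicate 1. DDIT3 was the exception, with a log2 difference of 0.0117 between the control libraries. On the log2(FPKM + 1) scale and against control replicate 1 alone, 1 of the 9 members (DDIT3) was more than 2-fold lower with GLUP, against 12.7% of all genes, and none was more than 2-fold higher, against 2.31%. Against control replicate 2 alone, on the same scale, 1 member (DDIT3) was more than 2-fold lower, against 23.3%, and 3 (DDIT4, CHAC1 and PHGDH) were more than 2-fold higher, against 13.0%. SLC7A11 was outside these counts because of the pseudocount, and in FPKM it was more than 2-fold lower in both GLUP libraries than in either control. The GLUP libraries ordered the members uniformly, with GLUP replicate 2 below GLUP replicate 1 in 9 of 9 against 56.1% of all genes tested.

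**Figure D2:**
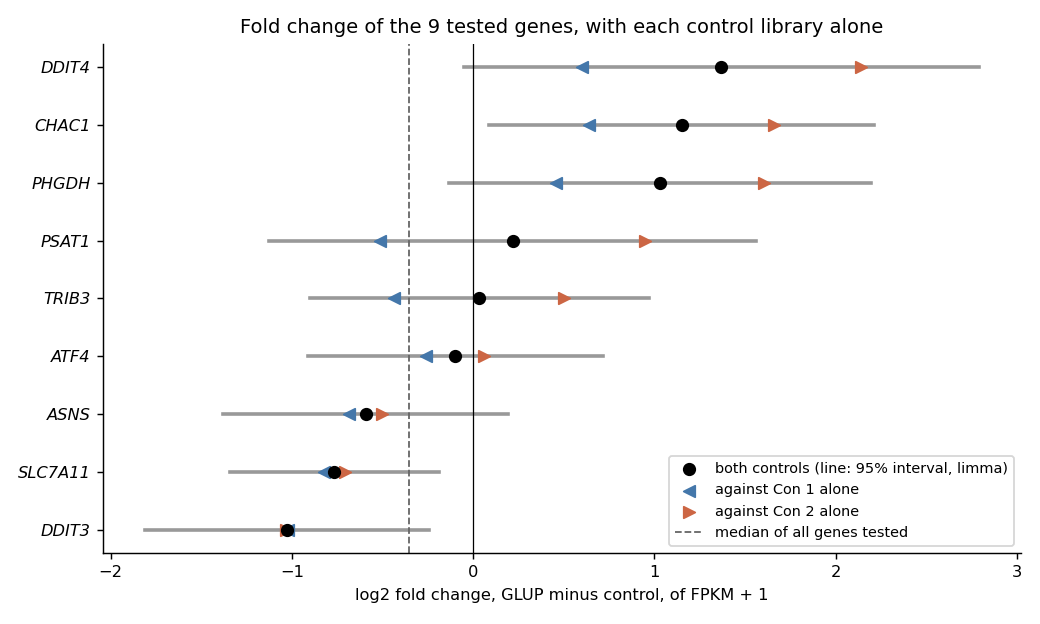
For each of the 9 tested genes the horizontal axis gives the log2 fold change of FPKM + 1, GLUP minus control, with both controls (black point, grey line for the 95% interval from limma) and with control replicate 1 (blue) or 2 (orange) alone. For DDIT3, SLC7A11 and ASNS both single-control values lie on the same side of 0, as they do for PHGDH, CHAC1 and DDIT4, while PSAT1, TRIB3 and ATF4 change side.

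DDIT3 kept its value with either control. Against control replicate 1 alone it had a log2 fold change of −1.02 (adjusted p = 0.0310 from limma), and against control replicate 2 alone one of −1.03 (adjusted p = 0.0106 from limma). In these fits the lone control is assumed to vary as the GLUP libraries do, which were the closest pair, and 18.7% and 53.2% of all genes tested passed. Without control replicate 1, 6 of the 9 members passed (DDIT3, DDIT4, PHGDH, PSAT1, SLC7A11 and CHAC1), and without control replicate 2 only DDIT3 did. The adjusted p of DDIT3 ran from 0.0106 to 0.607 over all settings, with the highest value when GLUP replicate 2 was left out.

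Ratios of 2 genes within a library do not depend on how the libraries are scaled against each other, and these pairs were picked after the values were seen. Such ratios still carry the trend with GC content described below. DDIT3 stood at 3.20 and 4.04 times the FPKM of ATF4 in the control libraries and at 1.90 and 1.85 times with GLUP, so CHOP mRNA was less abundant relative to that of ATF4 in both GLUP libraries. ASNS stood at 0.372 and 0.407 times ATF4 in the control libraries and at 0.285 and 0.253 times with GLUP. CHAC1, in contrast, went from 0.0741 and 0.0329 times ATF4 to 0.176 and 0.131 times. The ratio of PHGDH to PSAT1 was 0.373 and 0.457 in the control libraries and 0.731 and 0.748 with GLUP, although PSAT1 alone overlapped between the groups. TRIB3 over ATF4 overlapped between the groups, at 0.0966 and 0.0511 in the control libraries and 0.0776 and 0.0813 with GLUP. DDIT4 over SESN2 was 30.9 and 45.4 in the control libraries and 28.8 and 27.7 with GLUP. With the GC trend removed, the log2 fold change was 0.0205 for ASNS and −0.43 for ATF4, so ASNS no longer fell relative to ATF4. PHGDH and PSAT1 then stood at 1.02 and 0.84, against 1.03 and 0.22 in the main fit. DDIT3 (−0.85) stayed below ATF4 and CHAC1 (0.64) above it.

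Among the pairs of members shown, the widest shift was that of CHAC1 to SLC7A11, from 1.56 and 0.620 in the control libraries to 8.07 and 6.02 with GLUP. SLC3A2, the heavy chain that carries SLC7A11 and several other transporters to the cell surface, stood at 39.3 and 9.55 times SLC7A11 in the control libraries and at 192 and 155 times with GLUP. Neither ratio overlapped between the groups, and each sets a gene of higher GC content over the GC-poor SLC7A11.

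**Figure D3:**
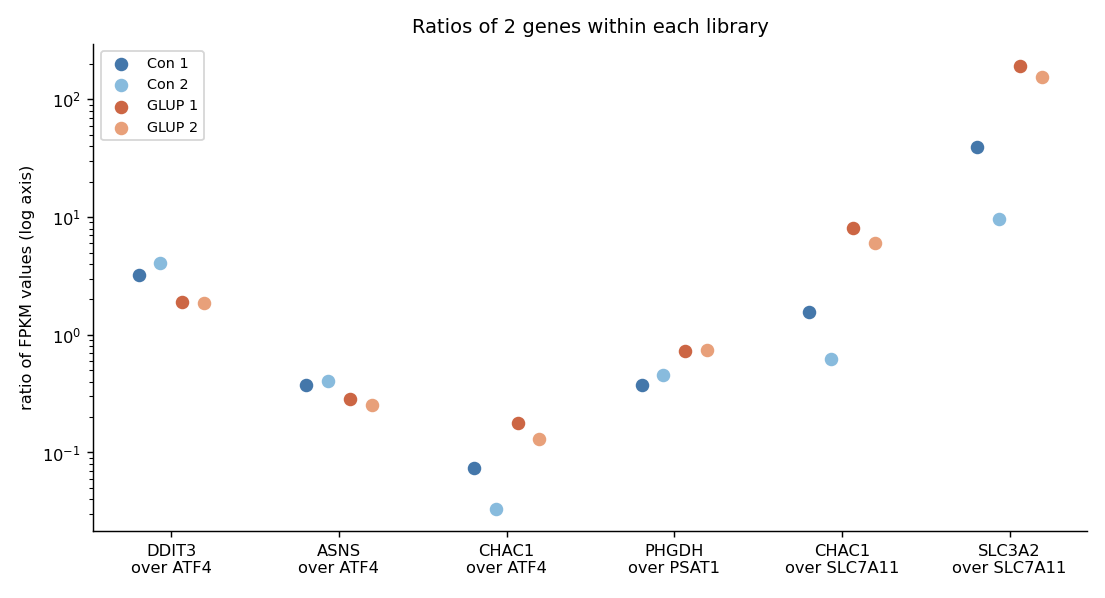
The vertical log axis gives the ratio of the FPKM values of 2 genes within a library, with a point per library (Con in blue, GLUP in orange). The 6 ratios plotted, of 8 computed, separate the groups, DDIT3 and ASNS over ATF4 downward and the other 4 upward. The pairs were picked after the values were seen, and the share of all gene pairs that separate the groups was not computed. TRIB3 over ATF4, which overlaps, and DDIT4 over SESN2, which also separates the groups, downward, are not plotted.

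Fold changes followed the GC content of the transcripts across all genes, with a Spearman rho of 0.58 over 7570 genes, which share the same 4 libraries. Over the 9 tested members the rho was 0.55. Between the control libraries, replicate 2 minus replicate 1, the rho with GC content was −0.42 over all genes tested. Over the 9 tested members that rho was −0.35. The members higher with GLUP have a GC content of 52.3% (PHGDH), 58.1% (DDIT4), 59.6% (SESN2) and 61.3% (CHAC1), and those lower have 35.4% (SLC7A11), 42.7% (ASNS) and 49.7% (DDIT3), against a median of 46.5% over the genes tested. Single members departed from that order. TRIB3 at 61.5% and ATF4 at 56.7% showed no resolved change, and DDIT3 lay above the median GC content and below 0 in fold change. The part of GC content in these differences was not tested beyond removing the trend, after which DDIT3 stood at −0.85, PHGDH at 1.02, DDIT4 at 0.97 and CHAC1 at 0.64, while SLC7A11 and ASNS turned to 0.0847 and 0.0205. The members that overlapped between the groups moved as well, ATF4 to −0.43, TRIB3 to −0.49 and PSAT1, with a GC content of 42.5%, to 0.84.

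**Figure D4:**
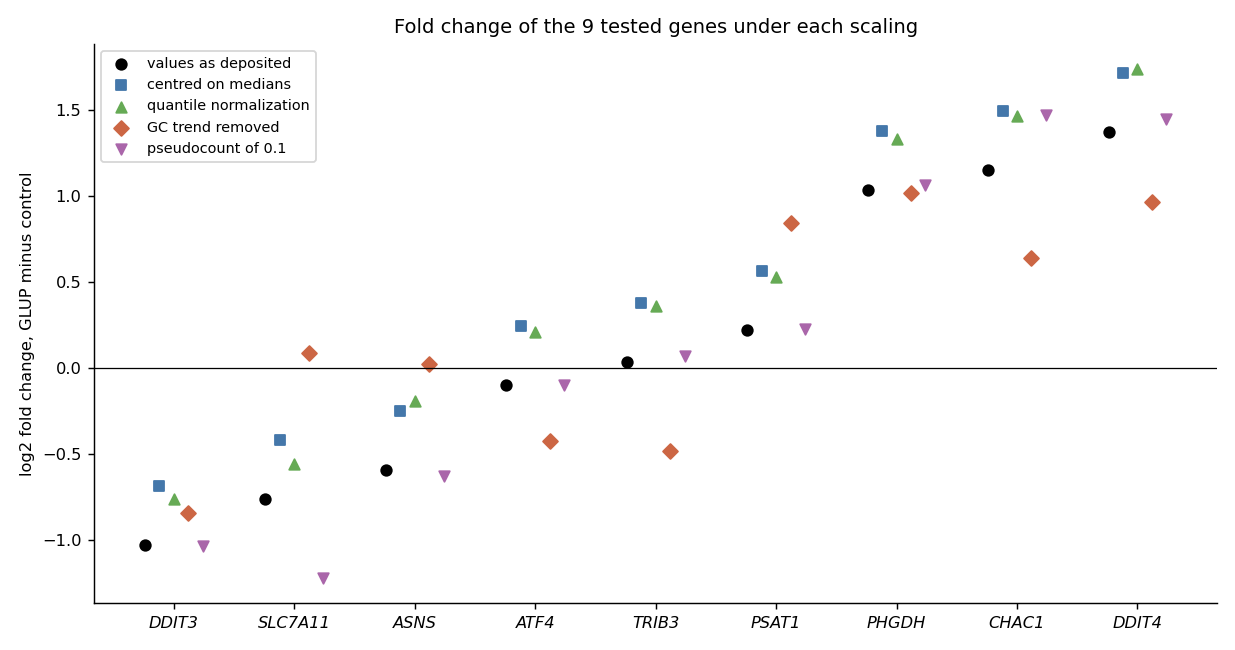
The vertical axis gives the log2 fold change of each tested member, GLUP minus control, under 5 treatments of the values. DDIT3 stays below 0 and PHGDH, CHAC1, DDIT4 and PSAT1 stay above it in all 5, whereas SLC7A11, ASNS, ATF4 and TRIB3 cross 0 under at least 1.

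The order of the members by FPKM, which is per unit of length, was DDIT3, PSAT1, ATF4, PHGDH, ASNS, DDIT4, TRIB3, CHAC1, SLC7A11 and SESN2 in control cells. The ranges of neighbours overlapped for PSAT1 and ATF4, PHGDH and ASNS, ASNS and DDIT4, TRIB3 and CHAC1, and CHAC1 and SLC7A11. With GLUP the order was DDIT3, PSAT1, PHGDH, ATF4, DDIT4, ASNS, CHAC1, TRIB3, SESN2 and SLC7A11, and only DDIT3 and PSAT1, and ATF4 and DDIT4, overlapped as neighbours. PHGDH, DDIT4, CHAC1 and SESN2 thus stood higher in the order with GLUP, and SLC7A11 moved to the last place. By the Euclidean distance between profiles centred on the gene mean over the 4 libraries, the genes most like ATF4 were PRPF4, STYX, PFKM, TM9SF4 and DDX27, at distances of 0.0262 to 0.0456 on the log2 scale. The member nearest to ATF4 was TRIB3, at 0.463 and only 1517th in the ranking of all genes tested by distance, counting ATF4 itself as the first. PHGDH and CHAC1 were nearest to each other, at 0.186, and so were ASNS and SLC7A11, at 0.244.

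Other genes of the pathway were taken from 6 lists, in which some genes appear more than once. They hold 85 genes, of which 58 were tested, and none had an adjusted p under 0.05 in limma, while 19 of the 58 had an unadjusted p under 0.05, against 2409 of all 7588 genes. With the GC trend removed, 9 of the 58 did, against 1388 of all 7570 genes. With either control library left out a single control remained, and pathway genes passed the adjusted threshold, as did many of all genes tested. Among the eIF2 kinases and the subunits of eIF2, of eIF2B and of the eIF2 phosphatases, 12 of 14 genes were tested. Of these, 7 lay lower without overlap (49.7% of all genes) and none higher (17.5%), with a median log2 fold change of −0.36, the same as that of all genes. The 3 eIF2 subunits were all among the lower ones, EIF2S2 at −1.59, EIF2S3 at −1.42 and EIF2S1 at −0.99, and the eIF2B subunit EIF2B3 stood at −1.05. EIF2S3 rested on control replicate 2, with 19.0 and 89.8 FPKM in the Con pair and 16.3 and 13.7 FPKM in the GLUP pair. The kinases EIF2AK1, EIF2AK2 and EIF2AK4 were at −0.39, −0.27 and −0.33, and EIF2AK3 (PERK) stayed under the filter. PPP1R15A (GADD34), the stress-induced phosphatase subunit, was at 2.54 and 0.610 FPKM in the Con pair and 0.994 and 0.703 FPKM in the GLUP pair, which overlapped.

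Of 10 partner and related bZIP factors and cofactors, 4 were tested, and 3 of them lay lower without overlap, against 49.7% of all genes. CEBPG, a dimer partner of ATF4, was at −1.51 (standard error 0.31), NFE2L2, the NRF2 factor that also drives SLC7A11, at −1.34, and NUPR1 at −0.68, whereas ATF3 was at 0.27 and overlapped. NUPR1 stood at 431 and 417 FPKM in the Con pair and 269 and 258 FPKM in the GLUP pair. Of 26 other ATF4 target genes, 17 were tested, 7 lower and 5 higher without overlap (49.7% and 17.5% of all genes), with a median of −0.21, or 0.14 relative to all genes. The largest differences were those of CEBPG, PYCR1 of proline synthesis (1.27), the mitochondrial protease gene LONP1 (1.12) and CTH of cysteine synthesis (−1.06). PYCR1 and LONP1 were at 0.93 and 0.66 against control replicate 1 alone, and at 1.61 and 1.58 against control replicate 2 alone. GDF15, a secreted stress cytokine, was at 2.62 and 0.560 FPKM in the Con pair and 3.80 and 2.65 FPKM in the GLUP pair.

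Of 12 amino acid transporters, 7 were tested, none lay lower and 3 lay higher without overlap, against 49.7% and 17.5% of all genes, SLC3A2 at 1.81, the glutamine transporter SLC1A5 at 1.32 and SLC7A5, the leucine transporter that pairs with SLC3A2, at 1.05. SLC3A2 stood at 93.0 and 20.2 FPKM in the Con pair and 185 and 130.3 FPKM in the GLUP pair. The list median was 0.14, or 0.49 relative to all genes. Among 18 serine and one-carbon genes, 12 were tested, 6 lower and 1 higher without overlap, near the 49.7% and under the 17.5% of all genes, with a median of −0.50. The higher one was SHMT2, the mitochondrial enzyme that splits serine into glycine and a one-carbon unit, at 1.37. It was at 0.62 against control replicate 1 alone and at 2.13 against control replicate 2 alone. Those farthest below 0 were GCSH of the glycine cleavage system (−1.85) and the thymidylate synthase gene TYMS (−1.63). Of 11 cystine and glutathione genes, 10 were tested, 4 lower and 2 higher without overlap, near the 49.7% and 17.5% of all genes, with a median of −0.48. GPX4, which uses glutathione to reduce lipid peroxides, was at 2.08, SLC3A2 at 1.81, CTH at −1.06, and TXNRD1, thioredoxin reductase, at −0.89 with overlap. GPX4 was at 1.34 against control replicate 1 alone and at 2.81 against control replicate 2 alone. The GC content was 61.2% for SLC7A5, 62.5% for GPX4 and 63.1% for PYCR1 among the higher genes, but 53.8% for SLC3A2, and it was 40.7% for GCSH and 39.8% for CEBPG among the lower ones, but 48.9% for TYMS.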

How the data were processed

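The authors deposited 1 FPKM value per gene and library for 4 libraries of HGC-27 cells, 2 control and 2 GLUP-treated. Tools named in the submitters' processing notes are HISAT2, Cufflinks and RSEM, without versions or roles, and the build GRCh38.p10, whereas 53015 of 62492 row IDs carry the suffix of annotation lifted to GRCh37. Sequencing depth and strand setting are not given in the sources used here. Rows of 1 gene ID were summed to 62443 genes, and 99.55% were named from GENCODE (lifted to GRCh37), which gave positions, lengths and GC content. Groups came from the sample titles.

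FPKM values were transformed to log2 with a pseudocount of 1. limma 3.58.1 (R 4.3.3, mean-variance trend) was run on genes averaging 1 FPKM or more, with Benjamini-Hochberg adjustment over 7588 genes. The fit was checked on simulated data with independent noise, equal across the libraries for each gene. That check does not cover a control pair less alike than the GLUP pair, or a GC trend shared by many genes. Alternatives changed the pseudocount (0.1), the filter (any value above 0, or an average of 5 FPKM), the scaling (median centring, quantile normalization, a GC trend removed by lowess with span 0.3) and the model (a replicate block, or variances without a trend), or used a ratio without a pseudocount and dropped each library in turn. Members and lists were chosen with earlier results of these data known. Named genes were all members, up to 4 tested genes per list by absolute fold change, the 5 genes nearest to ATF4, the nearest members and overlapping genes. Outside this rule PSPH, the eIF2 kinases, PPP1R15A and GDF15 were, like the ratios, named after their values were seen. Values of 1 list gene and 1 marker gene are not reported here.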

Additional observations from a re-analysis of the deposited data

How the results depend on the processing

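Of the 9 tested members, DDIT3 kept its direction downward, and DDIT4, PHGDH and CHAC1 upward, under every alternative in which they were tested. Reversals concerned ATF4 (0.24 after median centring, 0.20 after quantile normalization, −0.26 to 0.0595 with a library left out, the highest without control replicate 1), TRIB3 (−0.49 with the GC trend removed, with or without the replicate block, −0.0529 as a ratio without a pseudocount, −0.44 to 0.50 with a library left out, below 0 without control replicate 2 and, at −0.0116, without GLUP replicate 1), PSAT1 (−0.51 to 0.95 with a library left out, the lowest without control replicate 2), and ASNS (0.0205) and SLC7A11 (0.0847) with the GC trend removed, with or without the replicate block. The cause was not tested. No member and no other pathway gene passed the adjusted threshold except when a control library was left out. Over the libraries left out in turn, the number passing ran from 0 to 6 among the members, from 0 to 32 among the other pathway genes and from 4 to 4038 among all genes tested. The median log2 fold change of the members ran from −0.44 to 0.50 and, relative to all genes, from −0.0949 to 0.84. The number of all genes passing, 2 in the report, was 1 after median centring, after quantile normalization and for the smaller pseudocount (0.1). It was 0 for all genes above 0, for genes averaging 5 FPKM or more, for values without the GC trend and for variances without a trend (where 3744, 1174, 1388 and 2378 genes had an unadjusted p under 0.05 by limma), 2 with the replicate block and 16 with the replicate block and the GC trend removed. Libraries with the same replicate number share only that number, and their deviations from the group means correlated at 0.13. With the replicate block, 5 of the 9 members had an unadjusted p under 0.05 by limma, against 3 in the main fit. Over all genes tested the same count was 2559, against 2409 in the main fit. The unknown depth limits what can be said of SESN2, SLC7A11, CHAC1 and TRIB3, which have the lowest control values.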
